A study of Mus musculus with 16 samples.

Results

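The nuclear-encoded oxidative phosphorylation genes were examined in single cells of mouse mammary tumours. Members were all gene symbols that begin with Ndufa, Ndufb, Ndufc, Ndufs, Ndufv, Uqcr, Cox4 to Cox8 or Atp5, together with Sdha, Sdhb, Sdhc and Sdhd. This rule found 94 of the 23467 symbols in the 8 HiSeq count tables. Cox7b2, with 1 count, did not pass the filter on genes, so 93 of 19822 genes were described. By their known roles these are 74 structural subunits (36 of complex I, 4 of complex II, 8 of complex III, 11 of complex IV with Ndufa4, and 15 of complex V), 6 tissue-restricted isoforms, 10 assembly or associated factors and 3 pseudogenes. Atp5l-ps1, Atp5l-ps2, Cox6a2 and Cox8b had 14, 3, 30 and 7 counts over all barcodes and were too rare to describe further.

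Oxidative phosphorylation is carried out by 5 complexes of the inner mitochondrial membrane. Complex I (NADH dehydrogenase) and complex II (succinate dehydrogenase) pass electrons to ubiquinone, complex III passes them to cytochrome c and complex IV to oxygen, and complex V (ATP synthase) uses the resulting proton gradient to make ATP. Most subunits are encoded in the nucleus and imported, while the mitochondrial genome encodes core subunits of complexes I, III, IV and V (the mt- genes) but none of complex II. Several subunits have a second gene that is used in particular tissues, so both the summed level and the choice of isoform can differ between cell types.

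WB1P mice (WapCre;Brca1F/F;Trp53F/F) carry conditional Brca1 and Trp53 alleles and Cre driven by the whey acidic protein promoter, which is active in mammary epithelium. WB1P-Myc mice carry the same alleles and a conditional Myc construct, and the sources name no treatment of either model. End-stage tumours were dissociated, live dapi-negative singlets were sorted and Drop-seq, which counts 3′ transcript ends with unique molecular identifiers (UMIs), was run on 4 droplet fractions of 1 cell suspension per model. Each model was therefore 1 sample: the study used more than 1 mouse per model, and the sources do not say whether their cells were pooled in the suspension, fractions are technical repeats, the models were run as separate suspensions, and model and droplet run cannot be told apart. No p-value is given. Intervals are exact 95% intervals that cover counting error only.

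With 450 to 4000 genes and under 20% mt- UMIs per barcode, 1307 WB1P cells (65, 426, 394 and 422 in fractions 1 to 4, median 1724 UMIs) and 3491 WB1P-Myc cells (950, 889, 756 and 896, median 2358 UMIs) were kept. WB1P fraction 1 stood apart: it held 60 epithelial-like, 2 macrophage-like, 2 fibroblast-like and 1 endothelial-like cells, with a median of 887 UMIs. Over 28 pairs of libraries, 3 barcodes were shared, 1 of them among kept cells. Clusters were named from 11 marker lists. Epithelial-like cells came from different clusters in the models: a WB1P cluster (667 WB1P and 9 WB1P-Myc cells) with 2 epithelial markers, Csn3 and Krt7, among its 10 leading genes, and a WB1P-Myc cluster (6 and 1365 cells) with none. The 15 epithelial markers summed to 8572 CPM (UMIs scaled to a total of 1000000) in WB1P and 3462 CPM in WB1P-Myc epithelial-like cells, against 275 CPM in the Schwann-like cells, of which there were 1075 in WB1P-Myc and 0 in WB1P. The sum of the Schwann markers was 128, 493 and 3440 CPM in the same order. Cluster and model cannot be told apart in the epithelial-like class, and every comparison of the models in it carries this limit. As a check of the models, Myc was at 33.6, 68.2, 93.5 and 49.2 CPM in the WB1P fractions and at 197, 213, 188 and 202 CPM in the WB1P-Myc fractions of epithelial-like cells. Brca1 and Trp53 were still counted in both models, which checks nothing where 3′ ends lie outside the deleted part.

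Promoters are shown for the 3 genes of the ATP synthase c subunit, of which Atp5g1 differed most between the models among the structural subunits. The pair of genes of the complex IV subunit VIb is also shown. Of that pair, Cox6b2 had the highest ratio of Schwann-like over epithelial-like WB1P-Myc cells among members with over 100 CPM in the former. The promoters are RefSeq sequences on GRCm38.p6, from 250 bases before to 50 bases after an annotated start. All 5 genes lie on the minus strand. Atp5g1 is at chr11:96075582-96075881, Atp5g2 at chr15:102670998-102671297, Atp5g3 at chr2:73911277-73911576, Cox6b1 at chr7:30626065-30626364 and Cox6b2 at chr7:4753045-4753344. Capitals mark matches on either strand to the E-box CACGTG bound by Myc and related factors, the NRF1 motif (GCGCA and GCGC with any 1 base between), the ETS motif CCGGAAG bound by GABP, or the YY1 motif AAGATGGCG. These motifs do not overlap each other in the windows shown.
Atp5g1: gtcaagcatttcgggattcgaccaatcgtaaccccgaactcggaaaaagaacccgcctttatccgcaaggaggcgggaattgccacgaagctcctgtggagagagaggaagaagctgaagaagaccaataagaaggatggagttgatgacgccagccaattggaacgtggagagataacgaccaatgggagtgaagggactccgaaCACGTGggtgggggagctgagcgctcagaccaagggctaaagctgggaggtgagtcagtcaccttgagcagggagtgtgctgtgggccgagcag
Atp5g2: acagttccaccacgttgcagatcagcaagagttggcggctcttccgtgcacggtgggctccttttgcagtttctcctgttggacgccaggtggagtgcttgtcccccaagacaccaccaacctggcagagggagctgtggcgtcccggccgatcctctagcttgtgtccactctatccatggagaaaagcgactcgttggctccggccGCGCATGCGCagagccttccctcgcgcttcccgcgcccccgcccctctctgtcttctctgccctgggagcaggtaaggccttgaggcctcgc
Atp5g3: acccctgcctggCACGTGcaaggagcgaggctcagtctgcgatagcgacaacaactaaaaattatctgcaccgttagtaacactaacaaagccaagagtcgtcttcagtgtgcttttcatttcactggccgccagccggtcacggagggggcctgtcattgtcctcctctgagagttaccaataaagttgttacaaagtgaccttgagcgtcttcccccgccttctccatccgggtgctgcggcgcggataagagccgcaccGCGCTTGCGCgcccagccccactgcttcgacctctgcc
Cox6b1: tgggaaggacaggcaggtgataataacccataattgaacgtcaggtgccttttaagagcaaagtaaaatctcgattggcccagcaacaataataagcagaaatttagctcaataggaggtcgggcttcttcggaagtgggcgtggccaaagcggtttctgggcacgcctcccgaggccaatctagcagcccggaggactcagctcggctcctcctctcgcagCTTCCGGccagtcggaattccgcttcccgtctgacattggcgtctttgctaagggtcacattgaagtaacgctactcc
Cox6b2: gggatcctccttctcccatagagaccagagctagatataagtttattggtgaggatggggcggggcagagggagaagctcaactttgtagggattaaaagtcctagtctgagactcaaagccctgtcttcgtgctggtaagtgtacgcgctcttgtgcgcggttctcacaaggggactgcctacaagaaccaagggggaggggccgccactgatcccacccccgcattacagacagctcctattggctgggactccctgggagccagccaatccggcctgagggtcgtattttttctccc
Atp5g1 held an E-box starting 44 bases before the start, Atp5g2 an NRF1 motif 42 bases before it, and Atp5g3 an E-box 238 bases before and an NRF1 motif 12 bases after it. Cox6b1 held an ETS motif 28 bases before its start, and Cox6b2 held none of the 4 motifs in this window. Of the members, 72 of 93 were matched to 77 promoters. The E-box was found in 7.79% of these, beside 7.15% of all 32851 promoters. The NRF1 motif was found in 26.0% beside 4.6%, the ETS motif in 22.1% beside 8.86%, and the YY1 motif in 9.09% beside 1.40%. A match describes the letters only.

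Nuclear-encoded members made up 2.80% of UMIs in WB1P epithelial-like cells (95% interval 2.78 to 2.82) and 3.28% in WB1P-Myc epithelial-like cells (3.27 to 3.30), a 1.17-fold difference. The WB1P fractions were at 2.91%, 2.76%, 2.81% and 2.82%, and the WB1P-Myc fractions at 3.23%, 3.17%, 3.20% and 3.55%. All 4 WB1P-Myc fractions lay above all 4 WB1P fractions. The median over cells was 2.75% in WB1P and 3.12% in WB1P-Myc. Schwann-like cells, which express glial genes and were counted only in WB1P-Myc, had 3.20% (3.17%, 3.14%, 2.96% and 3.52% by fraction), below the epithelial-like share of the same fraction each time. The 10 leading genes of the Schwann-like cells also held the collagens Col2a1 and Col20a1, beside the Schwann marker S100b.

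The stromal and immune classes did not show the higher share. Macrophage-like cells were at 2.56% in WB1P (2.46%, 2.71%, 2.49% and 2.52%) and 2.36% in WB1P-Myc (2.37%, 2.21%, 2.26% and 2.61%). Fibroblast-like cells were at 2.13% in WB1P (2.26%, 2.31%, 1.99% and 2.10%) and 1.97% in WB1P-Myc (1.90%, 1.98%, 1.75% and 2.27%). In both classes the fractions of the models overlapped, so neither difference was larger than the spread between fractions. Endothelial-like cells, 37 and 72 of them, were at 2.45% and 2.19%. Within WB1P-Myc the order of the classes was thus epithelial-like and Schwann-like, which overlapped, then, without overlap with these, macrophage-like, endothelial-like and fibroblast-like cells, of which each overlapped the next. At resolution 0.6, 98 T or NK-like cells (19 WB1P and 79 WB1P-Myc) separated from the macrophage-like cells, with 3.27% of UMIs from members.

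Depth moved with these shares. In epithelial-like cells with under 1500, 1500 to 3000 and over 3000 UMIs, the share was 2.74%, 2.71% and 2.84% in WB1P and 2.79%, 3.01% and 3.40% in WB1P-Myc. The share in Schwann-like cells was 2.5%, 2.86% and 3.30% over the same bins. The log2 ratio between the models in epithelial-like cells was 0.23 over all cells, 0.15 in cells of 1500 to 3000 UMIs and 0.12 in the MiSeq run, where 4 WB1P-Myc cells were named epithelial-like. When all cells were clustered at resolution 0.6, where the WB1P-Myc epithelial-like cells split further, the share was 3.48% in the 514 cells still named epithelial-like, 3.29% in 233 cells without a name, and 2.60% in a group of 613 cells (593 of them WB1P-Myc) with a median of 1184 UMIs and Gm23935, Lars2 and Kcnq1ot1 as its leading genes. Of the 1374 WB1P-Myc epithelial-like cells, 514 fell in that epithelial-like cluster, 588 in the group of 613 cells and 232 in the 233 cells. The group of 613 cells also had no name, with Krt14 its 1 leading marker of 15. Class borders moved with the settings: clustered on 2000 variable genes, a Schwann-like cluster held 1275 WB1P-Myc cells and an epithelial-like cluster 1117. The part of depth in the difference between models was otherwise not tested.

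**Figure D1:**
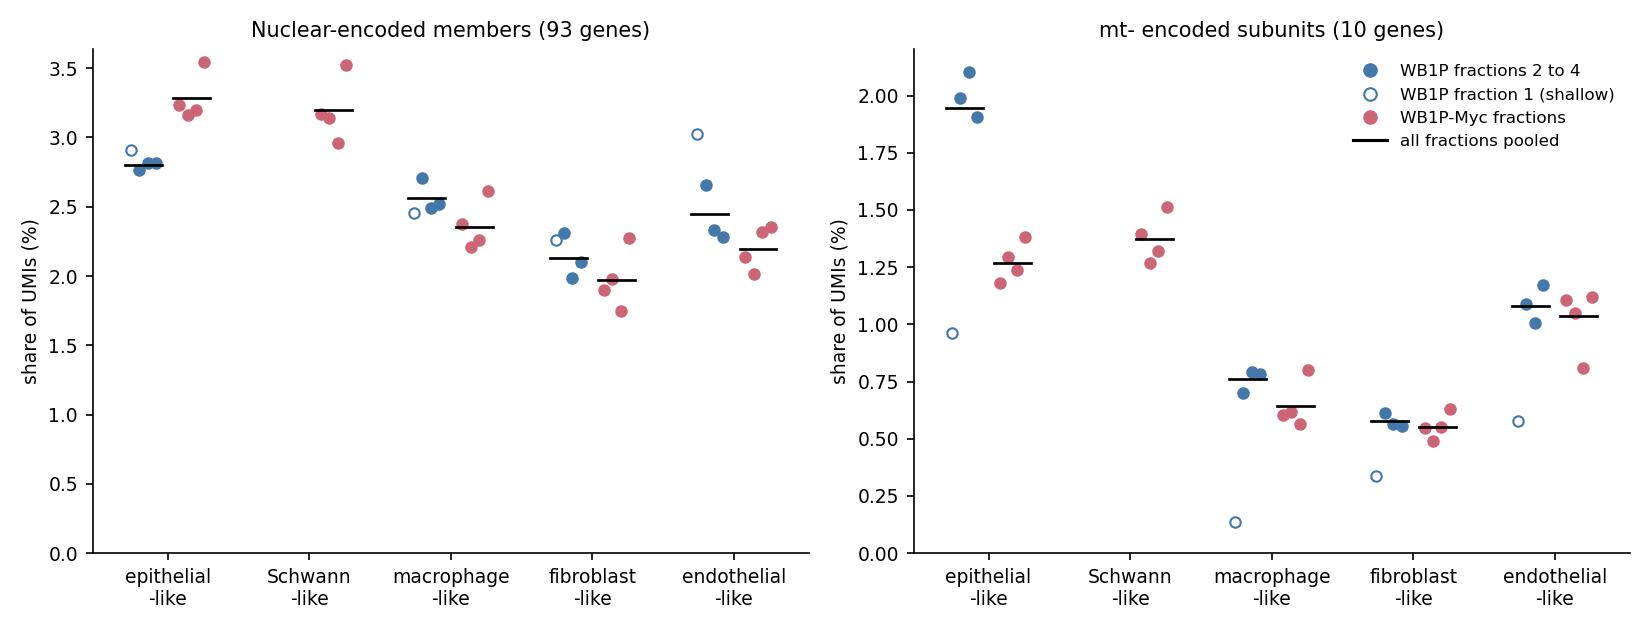
Share of UMIs (%) from the 93 nuclear-encoded members (left) and from the 10 mt- encoded subunits in the tables (right), by cell class. Points are droplet fractions (open circles: WB1P fraction 1) and black lines all fractions of a model pooled. In epithelial-like cells the 4 WB1P-Myc fractions lie above the WB1P fractions on the left, and below WB1P fractions 2 to 4 on the right.

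Among genes with at least 50 UMIs in epithelial-like cells, 86 members were compared with all 9466 genes. CPM at least 25% higher in WB1P-Myc was seen for 40 members (46.5%), beside a background of 36.7% of all genes, and CPM at least 20% lower, the same ratio turned around, for 11 members (12.8%), beside 35.9%. For 32 members (37.2%) all 4 WB1P-Myc fractions lay above all 4 WB1P fractions, beside 19.5% of all genes, and for 8 members (9.30%) they lay below, beside 17.5%. Without WB1P fraction 1, 44 members lay above (background 25.9%) and 12 below (24.2%). The median log2 ratio was 0.27 for members and 0.01 for all genes. Members were counted more deeply than genes in general, with a median of 2098 UMIs against 202, and the part of this in the counts was not tested. In the MiSeq run, with 4 WB1P-Myc epithelial-like cells, the direction turned for Atp5a1, Atp5c1, Ndufa11, Ndufa4, Ndufaf2 and Uqcr11.

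Complex I takes electrons from NADH. Its 36 subunits summed to 0.876% of UMIs in WB1P and 1.01% in WB1P-Myc epithelial-like cells, with 15 subunits (41.7%) at least 25% higher, near the 36.7% of all genes, and 3 (8.33%) lower, beside 35.9%. The fractions of the models overlapped for this sum, with WB1P fraction 1 at 0.990% and the lowest WB1P-Myc fraction at 0.970%. Ndufb5, an accessory subunit of the membrane arm, was at 101, 147, 104 and 118 CPM in the WB1P fractions and 286, 266, 318 and 292 CPM in the WB1P-Myc fractions, which did not overlap. Its log2 ratio was 1.23 (1.03 to 1.42). Ndufa12, an accessory subunit of the peripheral arm, was at 168, 251, 213 and 273 CPM against 424, 410, 448 and 513 CPM. Its log2 ratio was 0.87 (0.73 to 1.02).

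Ndufa11, a membrane-arm subunit that contacts complex III in supercomplexes, went the other way. It was at 751, 437, 495 and 516 CPM in WB1P and 276, 304, 255 and 303 CPM in WB1P-Myc, with no overlap and a log2 ratio of -0.79 (-0.91 to -0.67). Ndufs8, a core subunit that holds iron-sulfur clusters, was at 448, 235, 269 and 289 CPM against 187, 187, 183 and 217 CPM, with a log2 ratio of -0.49. In the MiSeq run with epithelial-like and Schwann-like cells together its log2 ratio was 0.25. Of the other core subunits, Ndufs1 and Ndufv1 had log2 ratios of 0.69 and 0.53.

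Complex II has 4 subunits, all encoded in the nucleus, and they did not move together. Sdhb, the iron-sulfur subunit, was at 224, 147, 137 and 131 CPM in WB1P and 282, 285, 255 and 320 CPM in WB1P-Myc epithelial-like cells. Its fractions did not overlap, and its log2 ratio was 1.00 (0.82 to 1.19). Sdhd, a membrane anchor, was at 112, 109, 78.8 and 81.9 CPM against 134, 148, 156 and 145 CPM, with a log2 ratio of 0.66. Sdhc, the other membrane anchor, was at 190, 171, 189 and 168 CPM against 137, 127, 117 and 139 CPM, lower in all 4 fractions, with a log2 ratio of -0.43. The flavoprotein Sdha was at 74.6 CPM in WB1P and 71.2 CPM in WB1P-Myc, and its fractions overlapped.

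Complex III summed to 0.270% of UMIs in WB1P and 0.379% in WB1P-Myc, with 6 of 8 subunits at least 25% higher and 1 lower, beside the same 36.7% and 35.9% of all genes. Uqcr11, a small accessory subunit, was at 728, 413, 453 and 496 CPM in WB1P and 878, 996, 1035 and 1020 CPM in WB1P-Myc, with a log2 ratio of 1.07 (0.97 to 1.17). Uqcrq, another small accessory subunit, was at 493, 368, 442 and 505 CPM against 716, 799, 762 and 810 CPM. Both genes were higher in every WB1P-Myc fraction. Uqcrb, the ubiquinone-binding protein, was the 1 lower subunit, at 291, 424, 577 and 533 CPM in WB1P and 338, 276, 304 and 348 CPM in WB1P-Myc. Its log2 ratio was -0.64, and its fractions overlapped because WB1P fraction 1 was lower than the other WB1P fractions. Uqcr10 had the next lowest ratio of the complex, 0.27, with WB1P fraction 1 at 751 CPM and the other WB1P fractions at 550 to 573 CPM.

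Complex IV reduces oxygen. Its 11 subunits summed to 0.858% and 0.885% of UMIs, with a log2 ratio of 0.04 (0.02 to 0.07), and the fractions of the models overlapped. At least 25% higher were 4 subunits (36.4%), near the background of 36.7%, and 2 (18.2%) were lower, beside 35.9%. Cox7b was at 291, 274, 330 and 282 CPM in WB1P and 466, 482, 514 and 519 CPM in WB1P-Myc. Cox4i1, the common isoform of the subunit IV that binds ATP, was at 1187, 850, 794 and 732 CPM against 1227, 1217, 1325 and 1353 CPM. Ndufa4, now assigned to complex IV despite its name, was at 414, 1195, 1391 and 1249 CPM in WB1P and 892, 809, 843 and 1015 CPM in WB1P-Myc. WB1P fraction 1 was on the other side of WB1P-Myc from the other 3 WB1P fractions, and the pooled log2 ratio was -0.47. Cox8a was at 930, 1040, 1093 and 943 CPM against 770, 748, 695 and 852 CPM, lower in all 4 fractions. Cox7a2l, which helps join complexes III and IV into supercomplexes, was at 157, 292, 244 and 244 CPM against 124, 131, 130 and 128 CPM. Its log2 ratio of -1.01 was in the same direction as that of Ndufa11.

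Complex V summed to 0.693% and 0.881% of UMIs, with 7 of 15 subunits (46.7%) at least 25% higher and 1 (6.67%) lower, beside 36.7% and 35.9%. The 3 genes (Atp5g1, Atp5g2 and Atp5g3) encode the same mature c subunit, which forms the rotating ring, and together they went from 0.0688% to 0.216% of UMIs, 3.14-fold. Atp5g1 was at 470, 314, 310 and 310 CPM in WB1P and 1457, 1433, 1192 and 1697 CPM in WB1P-Myc epithelial-like cells. The fractions were far apart, and the log2 ratio was 2.18 (2.07 to 2.30), a 4.54-fold difference. Atp5g2 was at 11.2, 132, 192 and 143 CPM against 290, 285, 279 and 320 CPM, and Atp5g3 at 202, 206, 253 and 221 CPM against 458, 404, 368 and 441 CPM. Their log2 ratios were 1.00 and 0.91.

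The catalytic subunits of complex V were also higher. Atp5b, the beta subunit, was at 437, 461, 471 and 499 CPM in WB1P and 835, 848, 764 and 758 CPM in WB1P-Myc, with a log2 ratio of 0.76. Atp5a1, the alpha subunit, had a log2 ratio of 0.49, with no overlap of its fractions. Atp5j, a subunit of the peripheral stalk, was at 661, 910, 1071 and 967 CPM against 714, 596, 555 and 782 CPM, with a log2 ratio of -0.53, and Atp5k, which supports dimers of the enzyme, was at 510 CPM in WB1P and 444 CPM in WB1P-Myc. Of the 7 Ndufaf genes, which are assembly factors of complex I, 5 were at least 25% higher and 1 was lower, beside 36.7% and 35.9%. These 7 genes summed to 0.0235% and 0.0414% of UMIs.

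**Figure D2:**
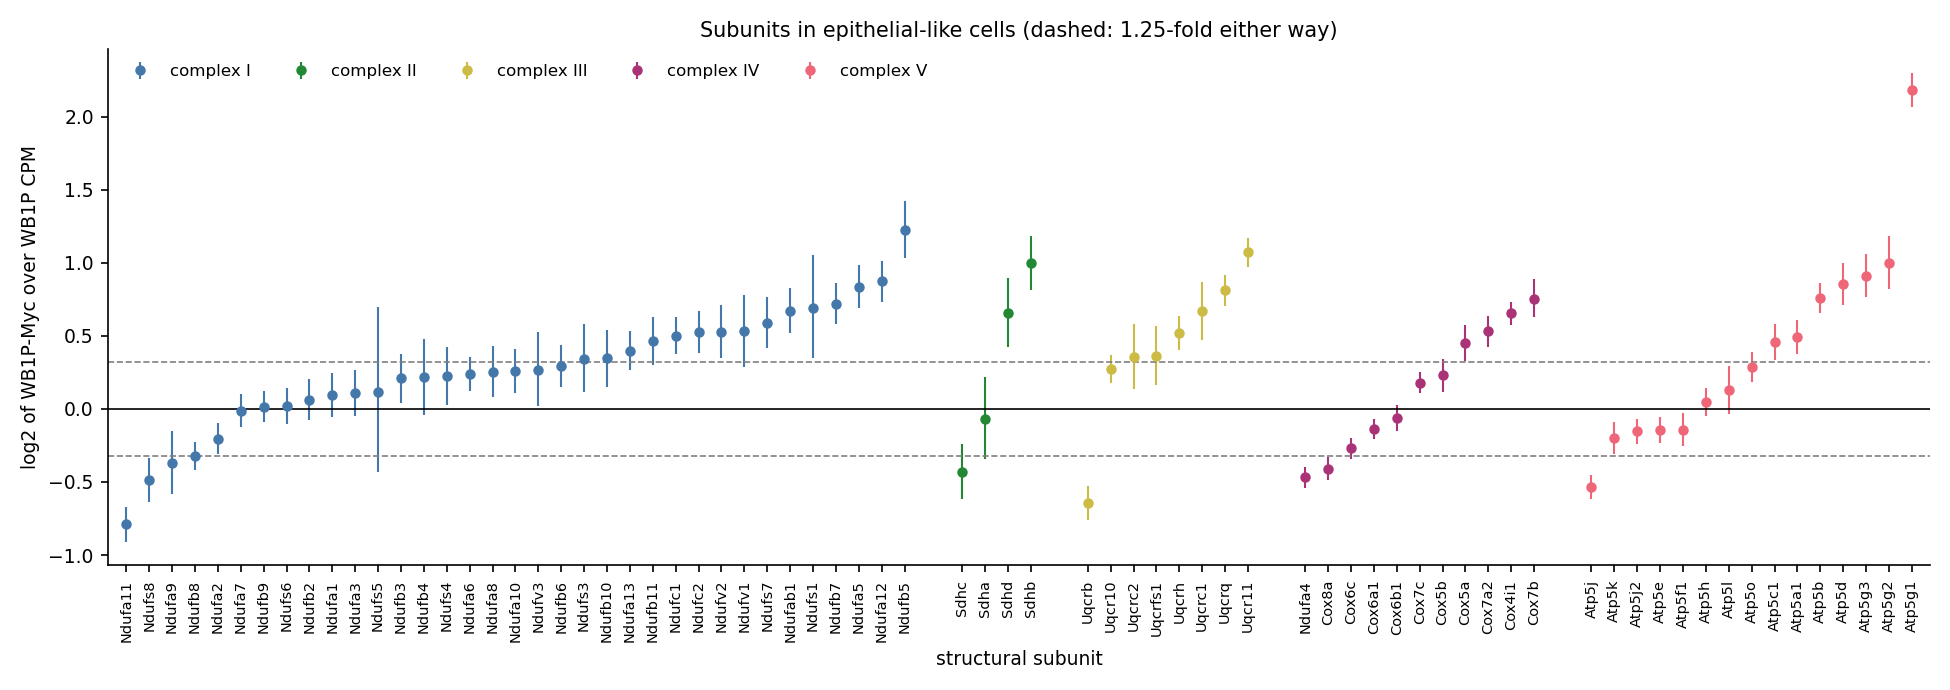
Log2 ratio of WB1P-Myc over WB1P CPM for the structural subunits named on the axis, in epithelial-like cells, by complex and in rising order. Bars are 95% intervals for counting error and dashed lines mark these same limits of 25% higher and 20% lower. Atp5g1 lies highest at 2.18, Ndufa11 lowest at -0.79, and every complex holds subunits on both sides of 0.

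The sum of the c subunit genes did not show the difference in the stromal and immune classes. It was 0.0820% and 0.0834% of UMIs in WB1P and WB1P-Myc macrophage-like cells (log2 ratio 0.02, -0.13 to 0.18) and 0.0732% and 0.0782% in fibroblast-like cells (0.10, -0.08 to 0.27). In endothelial-like cells it was 0.0842% and 0.0656% (-0.36, -0.85 to 0.15). Schwann-like cells had 0.186%. For Atp5g1 the macrophage-like values were 416 CPM in WB1P and 420 CPM in WB1P-Myc, the fibroblast-like values 394 CPM and 412 CPM, and the Schwann-like value 1044 CPM. Atp5g3 alone was higher in WB1P-Myc fibroblast-like cells, at 236 CPM against 183 CPM (log2 ratio 0.37, 0.03 to 0.71), with overlap of its fractions.

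**Figure D3:**
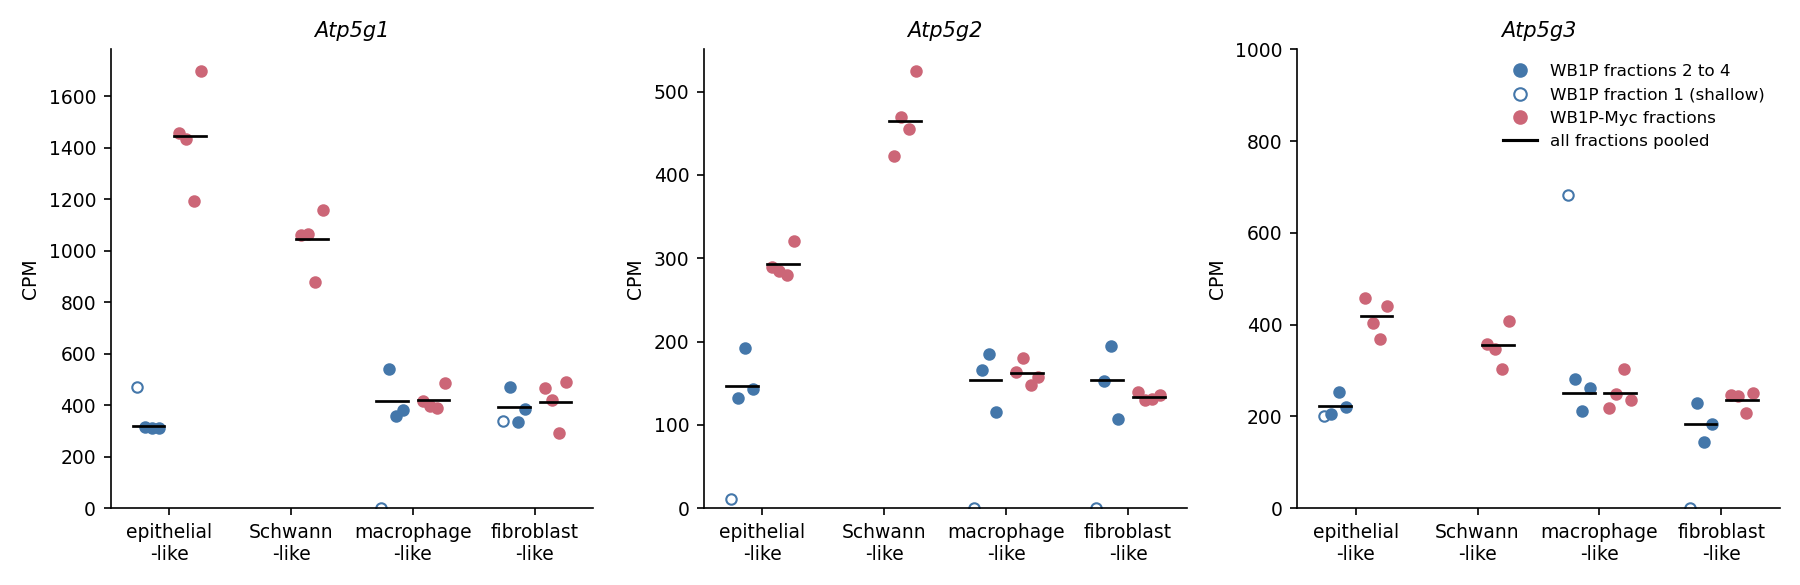
CPM of Atp5g1, Atp5g2 and Atp5g3, the 3 genes of the ATP synthase c subunit, in each droplet fraction (points; open circles: WB1P fraction 1, with 2 macrophage-like and 2 fibroblast-like cells) and pooled (lines), by class, with a separate axis per gene. In epithelial-like cells all WB1P-Myc fractions lie above all WB1P fractions for each gene, and in macrophage-like cells the pooled lines of Atp5g1 are at 416 and 420 CPM.

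In macrophage-like cells 77 members had at least 50 UMIs. Of these, 6 were at least 25% higher in WB1P-Myc, beside a background of 33.9%, and 10 were lower, beside 17.4%. The part of counting depth in these counts, and in those for fibroblast-like and Schwann-like cells below, was not tested. The median log2 ratio was -0.08 for members and 0.13 for all genes. Sdhb was among the higher members, at 0, 160, 215 and 238 CPM in WB1P and 360, 289, 268 and 324 CPM in WB1P-Myc. Its log2 ratio was 0.58 (0.29 to 0.87), and the value of 0 came from the 2 cells of WB1P fraction 1. At resolution 0.6, 19 WB1P and 79 WB1P-Myc cells of this class fell in the T or NK-like cluster. That cluster had 464 CPM of Sdhb, against 260 CPM in the macrophage-like cluster of 976 cells. The part of this mixture in the ratio was not tested. Ndufa1, a subunit needed to build the membrane arm of complex I, was the lowest, at 0, 540, 620 and 480 CPM against 347, 372, 327 and 437 CPM.

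In fibroblast-like cells 7 of 77 members were at least 25% higher, beside a background of 25.2%, and 12 were lower, beside 19.5%. The median log2 ratio was -0.11 for members and 0.06 for all genes. Ndufa1 was lower here as well, at 337, 438, 348 and 427 CPM in WB1P and 296, 259, 222 and 264 CPM in WB1P-Myc, a log2 ratio of -0.63 (-0.89 to -0.37) without overlap. The make-up of the fibroblast-like class differed between the models. Clustered alone, 10 WB1P and 43 WB1P-Myc cells fell in a subcluster (median 6223 UMIs) that the marker rule named Schwann-like. In it 3 of 12 Schwann markers led. Its 10 leading genes held no Schwann marker and included the cell-cycle genes Nuf2, Cdk1, Cenpe and Cdc20. A subcluster without a name held 38 and 2, with Mest, Ptn and H19 as leading genes and Epcam and Csn3 as leading markers. A fibroblast-like one held 48 and 107. The part of this in the values of the class was not tested. Sdhb and Ndufa1 in these classes were chosen after their values were seen.

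The pooled sum of the mt- encoded subunits was lower in WB1P-Myc than in WB1P epithelial-like cells, opposite to the nuclear members. Of the 13 mt- subunits, 10 were in the table and 7 had at least 50 UMIs there, while mt-Co2, mt-Co3 and mt-Atp6 were listed at or under 1.47 CPM in both models. The mt- sums and the ratios to them thus rest on 7 of 13 subunits, for a reason that is not known, and the values of the other 3 are given only as listed. The sum was 0.965%, 1.99%, 2.10% and 1.90% of UMIs in the WB1P fractions and 1.18%, 1.29%, 1.24% and 1.38% in the WB1P-Myc fractions. WB1P fraction 1 lay below all WB1P-Myc fractions and the other 3 above them. Pooled, 1.95% and 1.27% gave a log2 ratio of -0.62. The lower share was not found throughout the WB1P-Myc cells: at resolution 0.6 it was 1.14% in the 514 epithelial-like cells and 0.930% in the 233 cells without a name, but 2.41% in the group of 613 cells, against 1.89% in the WB1P cluster of 662 cells. The mt- ribosomal RNAs were at 1.73% in WB1P and 1.93% in WB1P-Myc (log2 ratio 0.16), and their fractions overlapped. mt-Nd1, a complex I subunit, was at 3058, 4349, 5016 and 4653 CPM against 2000, 2389, 2348 and 2617 CPM, the 1 mt- subunit lower in every WB1P-Myc fraction than in every WB1P fraction. mt-Cytb, the cytochrome b of complex III, was at 2801, 4865, 4986 and 4441 CPM against 2466, 2841, 2669 and 3440 CPM. mt-Co1, the catalytic subunit of complex IV, was at 975, 4573, 4525 and 3686 CPM against 2999, 2971, 2851 and 2961 CPM. mt-Nd2 and mt-Nd4 had pooled log2 ratios of -0.76 and -0.61.

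Not all mt- subunits were lower. mt-Nd5 was at 963, 1613, 1789 and 1313 CPM in WB1P and 1746, 1769, 1543 and 1693 CPM in WB1P-Myc, with overlap. mt-Nd6, the only subunit on the other strand of the mitochondrial genome, was at 11.2, 57.3, 75.2 and 65.6 CPM against 84.3, 109, 127 and 97.9 CPM, higher in every fraction. Without WB1P fraction 1, 5 of the 7 mt- subunits lay below in all fractions and 1 above, beside 24.2% and 25.9% of all genes.

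The ratio of nuclear to mt- encoded UMIs was accordingly 1.44 in WB1P and 2.59 in WB1P-Myc epithelial-like cells, a log2 difference of 0.85. By fraction it was 3.01, 1.39, 1.34 and 1.48 in WB1P and 2.74, 2.45, 2.58 and 2.57 in WB1P-Myc. Fraction 1 of WB1P was above all others, and WB1P fractions 2 to 4 were below all WB1P-Myc fractions. In cells of 1500 to 3000 UMIs the log2 difference was 0.41. The mt- share by depth bin was 2.05%, 2.07% and 1.89% in WB1P and 2.12%, 1.73% and 1.07% in WB1P-Myc, so in cells under 1500 UMIs the models were close. The filter at 20% mt- UMIs also bounds this share from above. In the other classes the ratio was 3.36 and 3.67 (macrophage-like), 3.69 and 3.56 (fibroblast-like), 2.26 and 2.11 (endothelial-like), and 2.33 in Schwann-like cells.

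The Schwann-like and epithelial-like classes of the WB1P-Myc model came from the same libraries, so session and depth of sequencing were shared when they were compared. Whether the Schwann-like cells were tumour cells was not tested. Of 86 members, 10 were at least 25% higher in Schwann-like cells, beside a background of 32.2%, and 10 lower, beside 27.8%. In all 4 fractions Schwann-like cells were higher within the fraction for 22 members (background 28.3%) and lower for 27 (25.6%). The median log2 ratio was -0.03 for members and 0.02 for all genes. The classes had median depths of 3223 and 2385.5 UMIs. Class names came from all genes, so these values describe the clusters and were not tested.

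Cox6b2, a second gene for complex IV subunit VIb known from testis, differed most among the higher members with over 100 CPM. This cut was not among the rules for naming genes, and Cox7a1, at 32.0 CPM in Schwann-like cells, had a higher log2 ratio of 2.37. Cox6b2 was at 103, 109, 120 and 88.7 CPM in Schwann-like cells and 24.1, 19.8, 16.1 and 27.6 CPM in WB1P-Myc epithelial-like cells, a log2 ratio of 2.25 (1.95 to 2.56). Over both models the next class was fibroblast-like at 19.4 CPM, and WB1P epithelial-like cells had 0, 1.36, 1.83 and 2.98 CPM (4 UMIs in all), so that its log2 ratio between the models in that class was 3.49 (2.09 to 5.39). The 12 Schwann markers moved with it, from 128 CPM (9 detected; 106 to 202 by fraction) in WB1P to 493 CPM (11 detected; 421 to 582) in WB1P-Myc epithelial-like cells, and their part in this ratio was not tested. In macrophage-like cells the same markers went from 22.6 to 165 CPM, with Cox6b2 at 10.5 CPM (7 UMIs) in WB1P and 10.2 CPM (13 UMIs) in WB1P-Myc. A Cox6b2 UMI was found in 22.2% of Schwann-like cells (median 3223 UMIs) and in 1.58% of macrophage-like cells (median 1481.5 UMIs), or in 4.93% and 0.559% after each cell was thinned to 600 UMIs. Cox6b1, its common counterpart, had 661 CPM in the Schwann-like and 688 CPM in the whole epithelial-like class. The level was uneven among Schwann-like clusters: at resolution 0.6 a cluster of 507 cells (median 4569 UMIs) had 153 CPM. The Schwann-like cluster of 593 cells (median 2431 UMIs) had 32.3 CPM (24.8 to 41.5). The 10 leading genes of the 593 cells held no Schwann marker and included the cartilage-matrix genes Hapln1, Acan and Col2a1. Those of the 507 cells included Mag, Cldn11 and Mbp. Of the 12 Schwann markers, 6 led in the 593 cells and 5 in the 507 cells. The clusters of 613 and 233 cells without a name overlapped the 593 cells, at 39.2 CPM (27.0 to 55.0) and 27.2 CPM (18.5 to 38.6). Among these clusters the high level was thus in the 507 cells only.

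The same 507 cells had 590 CPM of Sdhb and 3.58% of UMIs from members, against 250 CPM and 2.64% in the 593 cells. Over the whole class Sdhb was at 475, 461, 336 and 529 CPM by fraction in Schwann-like cells, above the 255 to 320 CPM of WB1P-Myc epithelial-like cells, a log2 ratio of 0.67. Ndufa6, which sits at the joint of the complex I arms, was at 750, 700, 703 and 869 CPM against 417, 412, 516 and 515 CPM. Atp5g2 was at 423, 469, 455 and 525 CPM in Schwann-like cells against 290, 285, 279 and 320 CPM. All 3 genes were higher in Schwann-like cells in every fraction.

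On the lower side, Atp5g1 was at 1044 CPM in Schwann-like and 1446 CPM in WB1P-Myc epithelial-like cells (log2 ratio -0.47), while Atp5g2 of the same c subunit was higher in Schwann-like cells. Atp5g1 was uneven within both classes: at resolution 0.6 it was at 1300.4 CPM in the 507 and 677 CPM in the 593 cells named Schwann-like, and at 1582, 1568 and 852 CPM in the clusters of 514, 233 and 613 cells that held most of the WB1P-Myc epithelial-like cells, so the ranges overlapped by cluster. Ndufv1, the NADH-binding subunit of complex I, was at 73.8, 70.1, 78.0 and 64.2 CPM in Schwann-like cells against 128, 139, 109 and 124 CPM, and the assembly factor Ndufaf6 at 23.6, 26.6, 22.3 and 17 CPM against 46.8, 59.4, 39.1 and 57.7 CPM. Ndufa5, chosen after its value was seen, had a log2 ratio of -0.54. Cox7a1, the heart and muscle isoform of subunit VIIa, was rare in both classes but higher in Schwann-like cells, at 32.0 and 6.20 CPM.

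**Figure D4:**
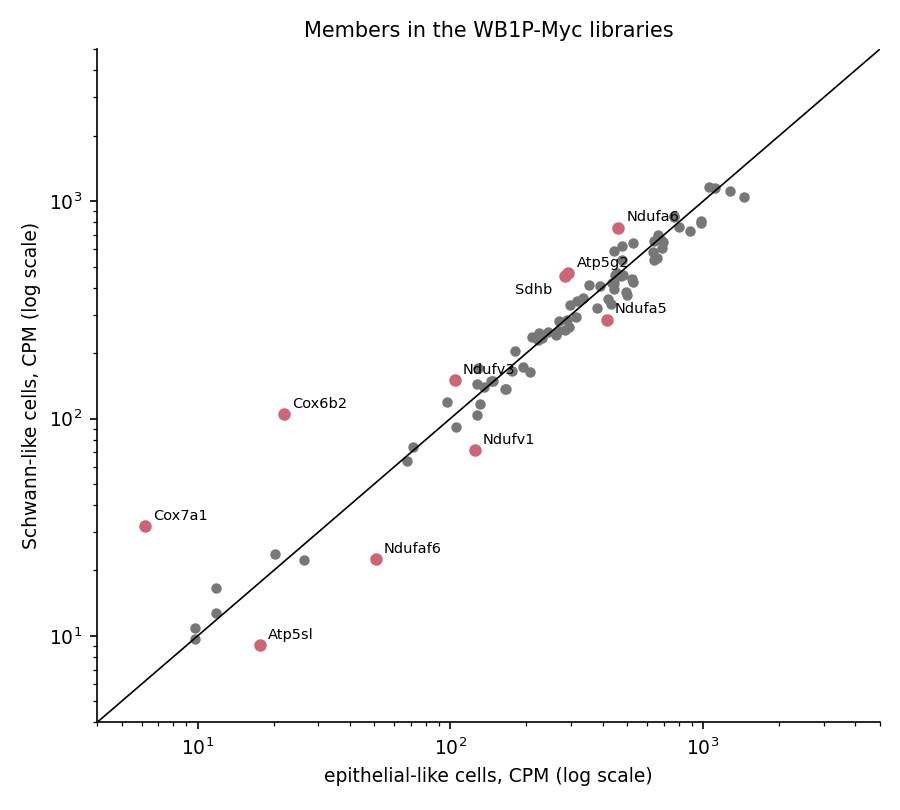
CPM of members in Schwann-like cells (vertical) against epithelial-like cells (horizontal) of the WB1P-Myc libraries, both on log scales, for the 86 members with at least 50 UMIs. Coloured, named points differ by at least 0.5 on the log2 scale. Most members lie near the line of equality, while Cox6b2 (105 against 22.0 CPM) and Cox7a1 (32.0 against 6.20 CPM) lie above it.

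Ndufa4l2, a paralogue of Ndufa4 that hypoxia is known to induce, was highest in part of the fibroblast-like class. It was at 0, 15.3, 27.9 and 88.9 CPM in WB1P fibroblast-like cells and 31.4, 26.6, 31.8 and 26.4 CPM in WB1P-Myc, 52 UMIs in all, and the models overlapped. The next class, Schwann-like cells, was at 8.39 CPM. At resolution 0.6 its cluster of 593 cells was at 19.3 CPM (37 UMIs, 13.6 to 26.6) and its cluster of 507 cells at 0.735 CPM (2 UMIs). Macrophage-like cells had 0 UMIs, which allows up to 1.55 CPM (3 counts). Rgs5 is a marker of pericytes, the contractile cells of small vessels, which the sort could hold. In the 62 fibroblast-like cells with an Rgs5 UMI, Ndufa4l2 was at 176 CPM (24 UMIs, 113 to 262), and in the 431 without one at 19.8 CPM (28 UMIs, 13.2 to 28.7), a log2 ratio of 3.15 (2.30 to 3.99). The log2 ratio was 3.92 within WB1P and 2.49 within WB1P-Myc, and 0.81 in the MiSeq run. After thinning to 600 UMIs a UMI was found in 12.9% and 1.39% of these cells and in 0.0489% of epithelial-like cells, whose median depth of 2192 UMIs lay between the 1575.5 UMIs of cells with and 2647 UMIs of cells without Rgs5.

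Cox4i2, the lung and hypoxia isoform of subunit IV, followed with far fewer counts, at 58.7 CPM (8 UMIs, 25.3 to 116) with Rgs5 and 2.83 CPM (4 UMIs, 0.772 to 7.25) without. The Schwann-like class held 29 Cox4i2 UMIs (6.40 CPM), beside 12 UMIs (7.75 CPM) in the fibroblast-like class, and its cluster of 593 cells was at 14.6 CPM (28 UMIs, 9.71 to 21.1). Cox7a1 had 5 and 3 UMIs in the same cells. Of the common counterparts, Ndufa4 was lower with Rgs5 (301 against 497 CPM, log2 ratio -0.73, -1.22 to -0.27), while Cox4i1 (917 against 666 CPM) and Cox8a (880 against 421 CPM) were higher. A pericyte-like subcluster of 102 cells, found by clustering the fibroblast-like cells alone, had 146 CPM of Ndufa4l2 and 34.8 CPM of Cox4i2. These isoforms gave too few counts in single fractions to compare them.

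**Figure D5:**
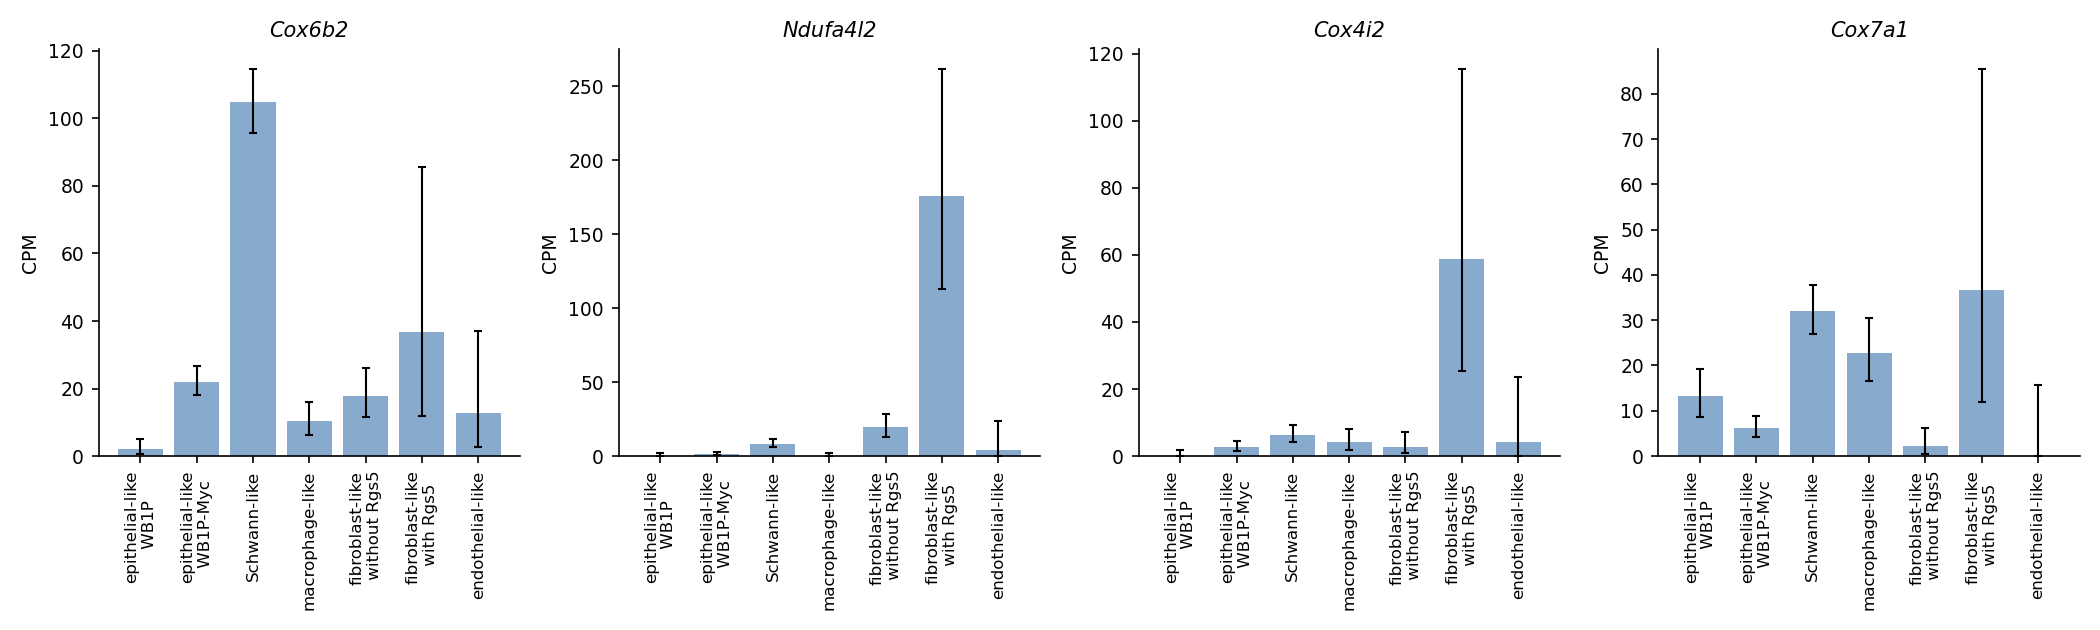
CPM of 4 tissue-restricted isoforms by class, with epithelial-like cells split by model and fibroblast-like cells split by whether an Rgs5 UMI was found, and a separate axis per gene. Bars are pooled values and whiskers exact 95% Poisson intervals. Cox6b2 is highest in Schwann-like cells at 105 CPM, and Ndufa4l2 and Cox4i2 in fibroblast-like cells with Rgs5 at 176 and 58.7 CPM.

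Other members led in 1 class by smaller factors. Cox5a, a nuclear subunit of complex IV, was at 661 CPM in macrophage-like cells against 454 CPM in the next class, Schwann-like. Ndufv3, a subunit near the NADH site, reached 235 CPM in the macrophage-like class, next to 150 CPM in the fibroblast-like class. Ndufa8 was highest in the 109 endothelial-like cells, at 373 CPM, with the Schwann-like class next at 238 CPM. The members whose CPM most resembled the summed share were Uqcr10, Cox7a2 and Atp5c1, with Spearman correlations of 0.92, 0.90 and 0.89 over 27 combinations of class, model and fraction, which share libraries and depth.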

How the data were processed

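Drop-seq counts of WB1P and WB1P-Myc tumours were analysed. Per the labels and the methods of the study, the authors deposited raw counts of UMIs per gene and barcode made with dropseq-tools, with 1000 barcodes in each of 16 tables (8 HiSeq, 8 MiSeq). The build named in the submitters' processing notes was mm10, and the aligner was not given in the sources used here. Genes were matched by symbol.

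HiSeq tables were used, and the MiSeq tables served as an alternative. Barcodes were kept with 450 to 4000 genes and under 20% mt- UMIs, and genes with counts in at least 3 cells. Counts were scaled to 10000 per cell, log-transformed and clustered with scanpy 1.11.5 (all genes, 30 components, 20 neighbours, Leiden resolution 0.3). A cluster was named from at least 3 leading markers. No doublet caller was run. UMIs were summed per class, model and fraction and given as percent or CPM. HiSeq totals were 256985 to 4960334 UMIs per table over all barcodes.

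With 1 sample per model no test was run. Exact binomial, Poisson and conditional binomial intervals (scipy 1.17.1) were computed, and the steps were tested on simulated data. Genes with at least 50 UMIs over both groups were compared. A gene was counted as higher or lower where its CPM was at least 25% higher or 20% lower, or where fractions did not overlap, beside the same count over all genes. Fractions hold no biological spread. Named genes were the 2 highest and 2 lowest subunits of each complex, all Sdh genes, core subunits, isoform pairs and mt- subunits, the 3 leading members of each class, the 2 highest and 2 lowest of each context list and the 3 most like the summed share, and other genes are marked where named. Members and lists were chosen with earlier results of these data known. Alternatives included edgeR 4.0.16 TMM scaling (R 4.3.3), other clusterings, filters and denominators. Promoters came from RefSeq (GRCm38.p6). Sequences of chromosome 18 genes were left out. Of the members, 1 complex I subunit entered the sums and counts and is not reported or plotted by name here.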

Additional observations from a re-analysis of the deposited data

Results flagged for a closer look

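A fraction far from the other 3 of its class and model (Dixon's criterion) was found in 15 of 165 sets of 4, where chance gives about 1 in 20. Of these, 10 were in WB1P fraction 1, the library with 65 kept cells. There the mt- encoded subunits were at 0.137% of UMIs in macrophage-like cells and 0.929% in all cells, and complex II subunits at 0.0572% in all cells and at 0 in macrophage-like and fibroblast-like cells, which number 2 each. In epithelial-like cells of that fraction Atp5g1 was at 470 CPM, Cox6a1 at 2308 CPM, Ndufa3 at 426 CPM, Uqcr10 at 751 CPM and mt-Nd4 at 504 CPM. In WB1P fraction 3 Ndufaf2 was at 95.3 CPM. In WB1P-Myc fraction 4 the complex V subunits were at 0.622% of UMIs in macrophage-like cells, and in epithelial-like cells Cox6b1 was at 771 CPM, Ndufs8 at 217 CPM and Ndufv3 at 114 CPM. Over 100 pairs of classes, no set of genes moved one way in every fraction of a class and the opposite way in every fraction of another.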

How the results depend on the processing

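No paired analysis was possible because the models were compared with no test and their fractions are separate droplet runs. The Schwann-like and epithelial-like cells of WB1P-Myc were compared within each fraction. The log2 ratio of the summed share in epithelial-like cells, 0.23 as reported, was 0.12 in the MiSeq run, 0.35 there with epithelial-like and Schwann-like cells together, 0.33 without mt- and ribosomal protein UMIs and 0.31 under TMM scaling. In the MiSeq run the 4 epithelial-like WB1P-Myc cells lay in a cluster with 233 WB1P cells, and 611 WB1P-Myc cells formed 1 cluster named Schwann-like. In that run 23 members were at least 20% lower in place of 11, with no share of all genes beside it. The count is thus not a result about the members. The Rgs5 log2 ratio of Ndufa4l2 was 0.81 there in place of 3.15. The sign turned in that run for Atp5a1 (-0.24), Atp5c1 (-0.034), Ndufa11 (0.59), Ndufa4 (0.59), Ndufaf2 (-0.11) and Uqcr11 (-0.84). With epithelial-like and Schwann-like cells together it turned for Cox7a1 (0.48), and with both together in the MiSeq run for Cox7a1 (0.83) and Ndufs8 (0.25). In cells of 1500 to 3000 UMIs it turned for Cox5a (-0.015) and Uqcrfs1 (-0.094). The cause was not tested. Of 1001 values for 53 named genes over all alternatives, 931 moved by less than the spread between fractions, 59 moved further and 11 turned.

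With each fraction left out in turn, the log2 ratio was 0.16 to 0.23 over all cells, 0.19 to 0.25 in epithelial-like, -0.17 to -0.09 in macrophage-like and -0.18 to -0.05 in fibroblast-like cells, 37 to 42 members were higher and 9 to 12 lower, the nuclear to mt- difference was 0.81 to 0.88, and the Rgs5 log2 ratio was 2.65 to 3.60 for Ndufa4l2 and 4.12 to 5.99 for Cox4i2. The counts of members with a fraction left out have no share of all genes beside them and describe stability only. Cox4i2 gave no value in the MiSeq run or after thinning. The ribosomal denominator, the depth bin and the joined classes of the MiSeq run were chosen after seeing the data. TMM shifted the median of all genes by 0.09 in epithelial-like and -0.10 in macrophage-like cells. One sample per model, few cells in WB1P fraction 1 and few endothelial-like cells limit all comparisons.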

Other observations

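Genes around the respiratory chain were also compared in epithelial-like cells, against the background of 36.7% of all genes at least 25% higher in WB1P-Myc and 35.9% at least 20% lower. The genes named from each list are the extremes of its ratios. Their pooled values are given without intervals or fractions, and low CPM among them rest on few UMIs. Of the mitochondrial ribosome, 48 of 76 genes were higher and 4 lower, with a median log2 ratio of 0.52. Mrps23 was at 14.7 CPM in WB1P and 90.9 CPM in WB1P-Myc, and Mrpl10 at 20.6 and 102 CPM, while Mrps21 was at 397 and 264 CPM and Mrpl51 at 241 and 142 CPM. Of the import machinery, 15 of 21 were higher and 1 lower (median 0.49). Timm22, the core of the carrier translocase, was at 32.4 and 168 CPM and Timm9 at 24.0 and 77.1 CPM, while Timm44, which tethers the import motor, was at 252 and 143 CPM and Tomm40l at 17.7 and 15.6 CPM. Of the citrate cycle and pyruvate dehydrogenase, 10 of 18 were higher and 0 lower (0.43). Suclg2, the GTP-forming succinyl-CoA ligase subunit, was at 7.85 and 78.7 CPM, while its ATP-forming counterpart Sucla2 was at 73.6 and 71.6 CPM. Dld was at 34.3 and 72.8 CPM and Pdhx at 20.1 and 16.8 CPM.

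Of other assembly factors and cytochrome c genes, 21 of 36 were higher and 2 lower (0.39). Cox20, a chaperone of the complex IV subunit encoded by mt-Co2, was at 177 and 55.4 CPM and Coa5 at 36.8 and 21.0 CPM, while the copper chaperone Sco1 was at 10.3 and 37.6 CPM and the complex I iron-sulfur factor Nubpl at 3.43 and 13.4 CPM. Of the regulators of mitochondrial biogenesis, 11 of 16 were higher and 1 lower (0.54). Polrmt, the mitochondrial RNA polymerase, was at 3.92 and 10.6 CPM and the coactivator Ppargc1b at 4.41 and 11.8 CPM, while Gabpb1 was at 25.0 and 15.4 CPM and Gabpb2 at 57.4 and 49.8 CPM. In WB1P epithelial-like cells 3.92 CPM is 8 UMIs, so Polrmt, Ppargc1b and Nubpl rest on few counts there.

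The cytosolic ribosome, outside the mitochondrion, was higher as well, with 54 of 83 genes higher and 2 lower (0.45) and a summed share of 15.6% in WB1P and 22.3% in WB1P-Myc epithelial-like cells. Rpl19 was at 1398 and 5540 CPM and Rpl27 at 1160 and 3903 CPM. Rps3a2 and Rps3a3 are near-identical copies of another gene, and their values are uncertain. In macrophage-like cells the ribosomal share was 10.7% and 10.2%, and in fibroblast-like cells 9.74% and 11.2%.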
